A study of Mus musculus with 2 samples.

Results

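The promoters described here were 9771 stretches of accessible chromatin that were called at both ends of the embryonic mouse femur and that lay close to the start of a single protein-coding gene. They were found by merging the proximal and distal peaks that overlapped by at least 1 bp and keeping each merged region that held a peak of each end and whose nearest edge was within 1 kb of annotated transcription start sites of exactly 1 protein-coding gene (GENCODE vM21, mouse build mm10). They made up 30.2% of the 32388 merged regions (95% Wilson interval 29.7 to 30.7%) and 41.3% of the 23635 regions shared by the ends. The members were selected on the peak calls of both ends, so their presence at both ends is a description, with no test.

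The peaks came from ATAC-seq, in which a transposase cuts DNA that is not wrapped tightly in chromatin, on cells of the proximal and the distal femoral growth plates of FVB mouse embryos at E15.5. Each sample was a pool of cartilage from 1 end of the femurs of littermates (about 8 embryos), without the bone of the shaft, and 50000 dissociated cells entered a reaction. Resting, proliferating and hypertrophic chondrocytes and perichondrium were therefore measured together. The 2 biological replicates of each end had been combined into 1 list before deposit, with 28257 proximal and 27958 distal peaks on the 19 autosomes, so no spread between replicates could be given, and the intervals below cover counting error only. The lists hold positions and no read counts, so the depth behind a peak is unknown.

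A promoter is the stretch of DNA around a transcription start where RNA polymerase and general factors assemble, and in active genes it is usually kept free of nucleosomes. Many mammalian promoters lie in CpG islands, where the dinucleotide CpG has not been lost to methylation, and these tend to serve genes that most cells use. Promoters poor in CpG more often hold a TATA box and more often serve genes used in few cell types. In the growth plate, chondrocytes divide, enlarge and lay down a matrix of type II collagen and the proteoglycan aggrecan, under the control of Sox9 and of hedgehog, FGF and BMP signals.

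The promoters of 6 cartilage matrix genes are shown, taken in list order from those with a shared region of their own. They differ widely in CpG, from none to just above the median ratio of all covered genes. Each stretch runs from 130 bases before the principal start to 20 bases from it (GRCm38 sequence, 5′ to 3′ along the gene), and capitals mark GC boxes (GGGCGG) and CCAAT boxes on either strand.
Col2a1, chr15:98004676-98004825, minus strand: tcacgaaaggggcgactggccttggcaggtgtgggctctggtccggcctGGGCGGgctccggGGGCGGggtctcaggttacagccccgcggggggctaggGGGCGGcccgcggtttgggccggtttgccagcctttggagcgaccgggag
Acan, chr7:79053353-79053502, plus strand: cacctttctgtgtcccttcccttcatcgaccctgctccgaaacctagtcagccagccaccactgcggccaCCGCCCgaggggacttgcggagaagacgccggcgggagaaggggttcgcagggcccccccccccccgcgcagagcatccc
Col9a3, chr2:180598092-180598241, plus strand: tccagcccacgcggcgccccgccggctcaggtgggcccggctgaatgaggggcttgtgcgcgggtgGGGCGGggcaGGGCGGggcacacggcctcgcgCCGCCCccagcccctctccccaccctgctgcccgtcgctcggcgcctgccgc
Col11a1, chr3:114030410-114030559, plus strand: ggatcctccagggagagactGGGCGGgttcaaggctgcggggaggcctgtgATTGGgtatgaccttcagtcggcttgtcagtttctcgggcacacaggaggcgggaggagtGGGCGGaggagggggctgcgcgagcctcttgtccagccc
Hapln1, chr13:89539666-89539815, plus strand: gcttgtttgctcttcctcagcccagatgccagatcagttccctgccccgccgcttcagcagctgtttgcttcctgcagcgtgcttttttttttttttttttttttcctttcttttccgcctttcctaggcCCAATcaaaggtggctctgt
Col9a1, chr1:24177480-24177629, plus strand: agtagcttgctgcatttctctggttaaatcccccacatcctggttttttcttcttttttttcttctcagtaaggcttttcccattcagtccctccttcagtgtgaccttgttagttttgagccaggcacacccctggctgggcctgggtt
The CpG ratio (observed CpG over the number expected from the base composition) of the 300-base promoter, from 250 bases before to 50 after the start, was 0.728 for Acan, 0.786 for Col9a3 and 0.602 for Col2a1. It was 0.49 for Hapln1, 0.332 for Col11a1 and 0 for Col9a1, whose promoter held no CpG. No GC box and no CCAAT box was present in the printed stretch of Col9a1, and all 6 starts lay inside a region called at both ends.

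A further 4 promoters are shown as examples of motifs whose shares are given below. Capitals mark the ETS motif CCGGAAG in B3gat3 (the glucuronyltransferase that completes the linker of glycosaminoglycan chains), the YY1 motif AAGATGGCG in Farsa (a phenylalanyl-tRNA synthetase subunit), the NRF1 motif GCGCATGCG in Eif4h (a translation initiation factor) and the TATA box TATAAA in Adamts1 (a protease that cuts aggrecan).
B3gat3, chr19:8920244-8920393, plus strand: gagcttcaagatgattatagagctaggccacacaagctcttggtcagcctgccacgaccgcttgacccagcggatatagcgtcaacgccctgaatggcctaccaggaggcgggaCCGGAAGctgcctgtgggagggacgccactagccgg
Farsa, chr8:84856859-84857008, plus strand: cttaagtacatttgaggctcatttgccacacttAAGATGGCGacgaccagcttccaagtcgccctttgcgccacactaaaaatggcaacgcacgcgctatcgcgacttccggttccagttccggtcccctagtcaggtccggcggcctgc
Eif4h, chr5:134639328-134639477, minus strand: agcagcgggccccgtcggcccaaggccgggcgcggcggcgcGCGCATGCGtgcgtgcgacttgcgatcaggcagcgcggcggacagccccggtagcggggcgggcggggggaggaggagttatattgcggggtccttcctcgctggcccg
Adamts1, chr16:85803094-85803243, minus strand: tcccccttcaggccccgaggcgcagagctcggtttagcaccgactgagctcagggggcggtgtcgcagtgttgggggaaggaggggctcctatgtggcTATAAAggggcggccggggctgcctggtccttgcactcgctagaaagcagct
The TATA box of Adamts1 lay 32 bases before its start, at the place where the TATA-binding protein is known to bind in TATA promoters.

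At these members, 9005 of the 20807 autosomal protein-coding genes had a promoter of their own that was accessible at both ends, which is 43.3% (42.6 to 44.0%). A further 2432 genes (11.7%) had only a shared region that also lay within 1 kb of another protein-coding gene, as in divergent gene pairs. Just 296 genes (1.42%) had only a region called at the proximal end and 569 (2.73%) only one called at the distal end, and 18 genes with 1 region of each kind are counted with the first. The remaining 8505 genes (40.9%) had no region within 1 kb of any of their starts. Any shared region was thus present at 55.0% of the genes.

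Which genes are annotated as protein-coding moved the share. Predicted genes named Gm were covered in 102 of 1226 cases (8.32%) and genes with Rik clone names in 134 of 539 (24.9%), and without the Gm genes and the olfactory and vomeronasal receptors the share was 49.1%. Among the 17236 genes with no other protein-coding start within 2 kb, where a second gene was less often in reach, it was 49.7% (49.0 to 50.5%). By chromosome it ran from 34.5% on chromosome 7 to 50.7% on chromosome 12. With olfactory and vomeronasal receptor genes left out, chromosome 7 rose to 43.0% and the range became 40.1% on chromosome 11 to 53.7% on chromosome 10.

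The regions were about 1 kb wide and nearly the same at both ends. Their median width was 984 bp, with quartiles of 800 and 1202 bp. Medians of the single peaks were 928 bp at the proximal and 913 bp at the distal end, and the part covered by both ends had a median of 855 bp, or 90.4% of the region. In 98.9% of the members each end had a single peak. The proximal minus distal width had a median of 9 bp and quartiles of -51 and 76 bp, and the proximal peak was the wider in 54.1% (53.2 to 55.1%) of members.

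Regions near start sites that were called at 1 end only were narrower. The median width was 558 bp for the 455 proximal-only regions near a single gene and 597 bp for the 797 distal-only regions, against 1096 bp for the 1335 shared regions near 2 or more protein-coding genes and 678 bp for the 12529 shared regions with no protein-coding start within 1 kb. A wider region has more room to overlap a peak of the other end, so the rule itself favours wide members. Within the members, regions under 500 bp numbered 283 (2.90%) and regions over 2000 bp 84 (0.86%).

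**Figure D1:**
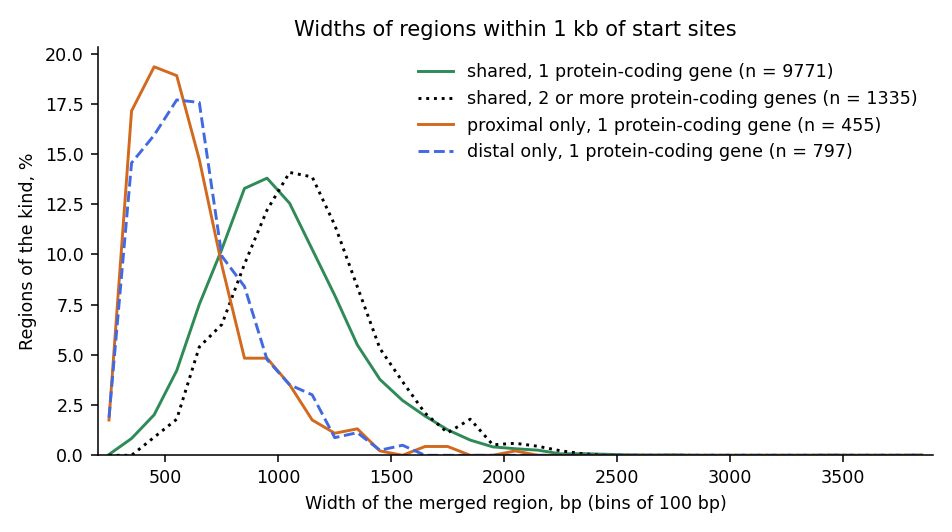
Share of regions (vertical axis, %) by width of the merged region (horizontal axis, bp, bins of 100 bp) for 4 kinds of region within 1 kb of protein-coding start sites. The members, with a median of 984 bp, lie to the right of the proximal-only and distal-only regions, with medians of 558 and 597 bp, and to the left of the shared regions near 2 or more genes, with a median of 1096 bp.

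The extremes of width were of different kinds. The widest member, 3802 bp at Gm21738 on chromosome 14, had a GC content of 34.6%, and 84.2% of its bases were soft-masked repeats. It was followed by Ppp2r3d (3440 bp), Klhl29 (2771 bp), Tent5a (2753 bp) and Nr3c1 (2644 bp), which encodes the glucocorticoid receptor. Their GC content lay between 59.9 and 68.6%, and at most 13.2% of their bases were repeats, so Gm21738 stood apart from the other wide members. The narrowest were Elovl4 (266 bp), Mttp (269 bp), Mme (296 bp), Nr2c2ap (297 bp) and Mthfd1 (311 bp). Of these, Mttp (a lipid transfer protein of lipoprotein assembly) and Nr2c2ap held their start sites, while the regions of Elovl4, Mme and Mthfd1 lay 852, 792 and 983 bp downstream of the nearest start.

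Most members lay across the start site itself. A start of the gene was inside the region in 9088 of 9771 cases (93.0%, 92.5 to 93.5%), whereas 332 regions (3.40%) lay wholly upstream of the nearest start and 351 (3.59%) wholly downstream. The centre was within 250 bp of the nearest start in 83.0% of members. Measured along the gene, the median upstream edge was at -473 bp, the median downstream edge at 512 bp and the median centre at 9 bp. The centre was downstream of the nearest start in 54.5% (53.5 to 55.4%), so the regions lay almost evenly about that start, with a small lean into the gene. Taking the nearest of a gene's starts itself draws the centre towards a start. With the 5′ end of the gene as the only start, 8339 regions were kept. Of these, 76.7% held that start and 75.7% had the centre downstream of it. The 5′ end is by definition the outermost start, so any other start of the gene can only lie downstream of it. For comparison with the 93.0%, a start was inside the region in 98.7% of the shared regions near several genes, in 64.2% of proximal-only and in 73.0% of distal-only regions near a single gene.

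**Figure D2:**
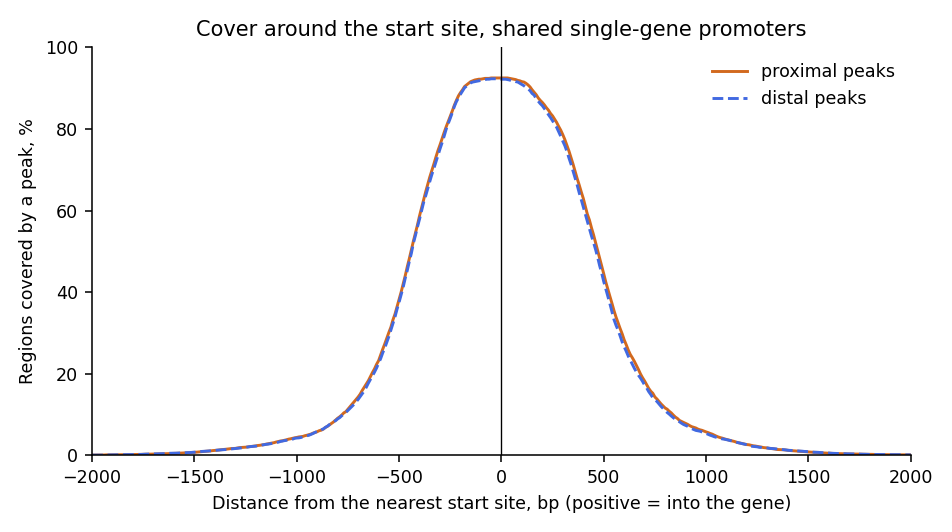
Share of the 9771 members covered by a proximal peak (solid line) or a distal peak (dashed line), in %, against distance from the start nearest to the region's centre, in bp, with positive values into the gene. At the start 92.5% were covered by a proximal and 92.2% by a distal peak, and cover was at least 50% from -440 to 470 bp for proximal peaks and from -430 to 460 bp for distal peaks.

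Both ends gave the same outline around the start. At 500 bp upstream 38.2% of members were covered by a proximal and 37.5% by a distal peak, and at 500 bp downstream 44.5% and 42.6%. At 1000 bp the values had dropped to 4.38% and 4.24% upstream and to 5.74% and 5.36% downstream.

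In terms of the gene's own annotation, the 9771 members covered 9973048 bases. Of these, 34.1% lay upstream of the gene, 20.7% in 5′ untranslated exons, 8.87% in coding exons and 32.0% in introns. Some 5′ UTR was covered in 90.5% of members and some coding sequence in 58.5%, while only 1.64% reached a 3′ UTR. The region of Sox9, the master regulator of chondrocyte fate, covered 297 bp upstream, 361 bp of 5′ UTR and 142 bp of coding sequence. That of Acan, which encodes aggrecan, covered 667 bp upstream, 126 bp of 5′ UTR and 185 bp of intron.

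The members whose centre lay farthest from a start were few and held no start. Upstream, the centre was at -1718 bp for Mrap, -1530 bp for 4833427G06Rik, -1447 bp for Irx5, -1436 bp for Bcar3 and -1423 bp for Lsp1. Downstream, it was at 1875 bp for Lor, 1869 bp for Mllt10, 1813 bp for B430305J03Rik, 1677 bp for Clec11a and 1588 bp for Zfp827. The upstream regions of Mrap, Bcar3 and Lsp1 had low CpG ratios (0.182, 0.195 and 0.297), whereas those of 4833427G06Rik (0.65) and Irx5 (0.929) were higher. The downstream regions ran from 0.609 to 0.84. At the 1 kb limit, the last members inside were those of Gse1 (998 bp from the start), Rapgef2 (995 bp) and Wnt6 (994 bp), and the nearest left outside were those of Ppp6r1 (1001 bp), Evi5l (1003 bp) and Nr4a2 (1005 bp). No step in width was seen at the limit, as the 118 members at 801 to 1000 bp had a median width of 628 bp and the 98 regions just beyond, at 1001 to 1200 bp, of 589 bp.

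Some genes had several accessible start regions. Of the 9005 genes, 8320 (92.4%) had 1 member region, 619 had 2, 54 had 3, 10 had 4 and 2 had more. In 386 of the 685 genes with several regions, at least 2 of them each held a start. Pde4d, a cyclic AMP phosphodiesterase with many promoters, had 6 regions across a gene of 1503514 bp, of which 5 held a start. Nav2 had 5, and Ank2, Cfap45 and Dlc1 had 4 each. The principal start, taken from the annotation's main protein isoform, was inside 79.8% of members. A total of 1552 members lay more than 1 kb from the annotated 5′ end of their gene, at a median of 17774 bp from it.

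Several regulators of cartilage had regions away from the 5′ end. Hif1a, the oxygen-regulated factor that chondrocytes need in avascular cartilage, had a region of 497 bp at its 5′ end and one of 1266 bp at its principal start, 6008 bp from the 5′ end. Gli2, an effector of hedgehog signalling, had a region of 1306 bp at its 5′ end and one of 1043 bp lying 70381 bp from it. For Mef2c, a factor of chondrocyte hypertrophy, the only region (1448 bp) lay 19526 bp from the 5′ end. The only region of Runx1, 545 bp wide, lay 128439 bp from it. In Bmpr1b, a BMP receptor, a region of 1278 bp lay at the 5′ end and one of 847 bp at the principal start, 186952 bp away.

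Starts of noncoding genes were also found near the members, since the rule counted protein-coding genes only. They lay within 1 kb of 1687 members (17.3%), in 1806 pairs of a region and a noncoding gene. Antisense genes made up 33.6% of the pairs and lincRNA genes 16.1%. The noncoding start was on the opposite strand and upstream in 53.2%, on the opposite strand and downstream in 33.3%, and on the same strand in 13.5%. The divergent arrangement was thus the most frequent of the 3.

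Genes with a shared promoter of their own were rich in CpG, a property the rule did not use. The ratio was taken over 300 bases at the principal start, which lay inside 79.8% of the members, and not over the region itself. The median CpG ratio of the 300-base promoter was 0.752 (quartiles 0.561 and 0.898) for the 9005 genes and 0.21 (0.102 and 0.388) for the 8505 genes without a region. It was 0.823 for genes with only a shared region near several genes and 0.582 for those with a region of 1 end only. A ratio of at least 0.6 with a GC content of at least 50% was found in 67.6% of the 9005 genes and in 11.8% of those without a region, against 44.9% of all genes.

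When all genes were split into quintiles by CpG ratio, 8.39% of the lowest quintile (7.58 to 9.27%) had a shared single-gene region, then 22.1%, 56.6%, 65.7% and 63.7% (62.2 to 65.1%) of the highest. Any shared region was present in 84.5% of the fourth and 87.4% of the highest quintile, so the last step down was not seen when regions near several genes were counted too. Longer genes were covered more often, with 20.9% of the shortest quintile and 65.8% of the longest. Genes with more annotated starts, which offer more chances to lie within 1 kb of a peak, were also covered more often, from 18.7% in the lowest quintile to 67.0% in the highest. These properties go together across genes, and their separate parts were not tested.

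**Figure D3:**
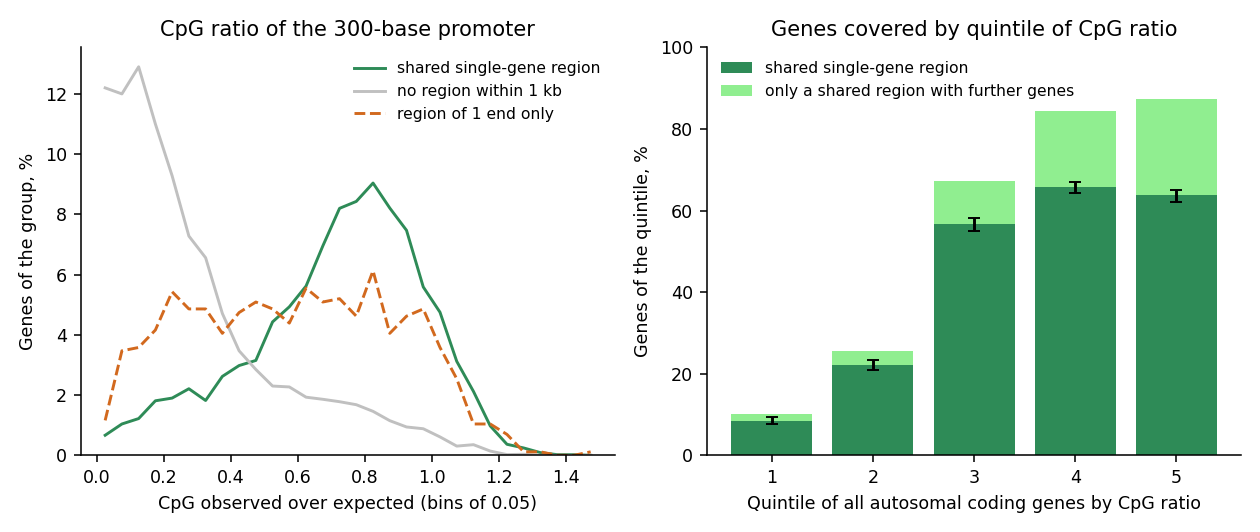
Left, share of genes (vertical axis, %) by CpG ratio of the 300-base promoter (horizontal axis, observed over expected, bins of 0.05) for genes with a shared single-gene region, with a region of 1 end only and with none. Right, share of genes covered in each quintile of all autosomal protein-coding genes by CpG ratio, with 95% Wilson intervals on the dark bars. Dark bars climb from 8.39% in the lowest to 65.7% in the fourth quintile and stand at 63.7% in the highest. The medians of the distributions on the left are 0.752, 0.582 and 0.21.

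Core promoter and factor motifs were searched on both strands of the same 300 bases, and a match is a description of the letters, not of binding. No motif contains the letters of another. The GC box (GGGCGG, bound by Sp and Klf factors) was present in 64.7% of promoters with a shared single-gene region, 20.2% of those without a region and 46.0% of all promoters. The ETS motif (CCGGAAG) was present in 16.2%, 2.75% and 11.4%, NRF1 (GCGCATGCG) in 3.39%, 0.447% and 2.23%, YY1 (AAGATGGCG) in 2.61%, 0.247% and 1.88%, and the cyclic AMP response element CRE (TGACGTCA) in 3.36%, 0.835% and 2.45%. The E-box CACGTG was present in 9.85%, 5.00% and 7.80% and the ZBTB33 motif TCTCGCGAG in 1.22%, 0.188% and 0.846%. In the Wilson intervals none of these shares of members overlapped that of genes without a region.

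The opposite order was seen for 3 motifs. TATAAA was present in 7.15% of members' promoters, 22.3% of those without a region and 13.3% of all. On the gene's own strand at 40 to 20 bases before the start, where a working TATA box lies, it was present in 0.933% (0.754 to 1.15%) against 4.36% (3.95 to 4.82%). The AP-1 motif TGANTCA was present in 4.75%, 9.92% and 6.84%, and the SOX motif ACAATGG in 1.82%, 4.30% and 2.78%. The CCAAT box was present in 39.0%, 36.6% and 37.7%, and this order turned with a window of 500 bases before to 100 after the start. Then 56.2% of the promoters of covered genes and 59.2% of those without a region held one.

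To set motifs beside base composition, shares were also taken within the highest quintile of CpG ratio, where 2649 genes with a shared single-gene region were set beside 343 genes without a region. There the GC box was present in 79.4% and 79.9%, and TATAAA in 5.13% (4.36 to 6.04%) and 4.66% (2.89 to 7.44%), so the intervals overlapped for both. The ETS motif was still more frequent, at 20.9% (19.4 to 22.5%) against 24 of the 343 genes (interval 4.75 to 10.2%), as were the CCAAT box, at 34.5% against 20.4% (16.5 to 25.0%), CRE, at 4.79% against 1.75% (0.804 to 3.76%), and NRF1, at 5.66% against 2.33% (1.19 to 4.53%). For YY1, AP-1, the E-box, the ZBTB33 motif and the SOX motif the intervals overlapped in this quintile. In the lowest quintile, TATAAA was present in 18.1% (14.4 to 22.4%) of 349 promoters with a shared single-gene region and in 27.6% (26.1 to 29.0%) of 3657 without a region.

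**Figure D4:**
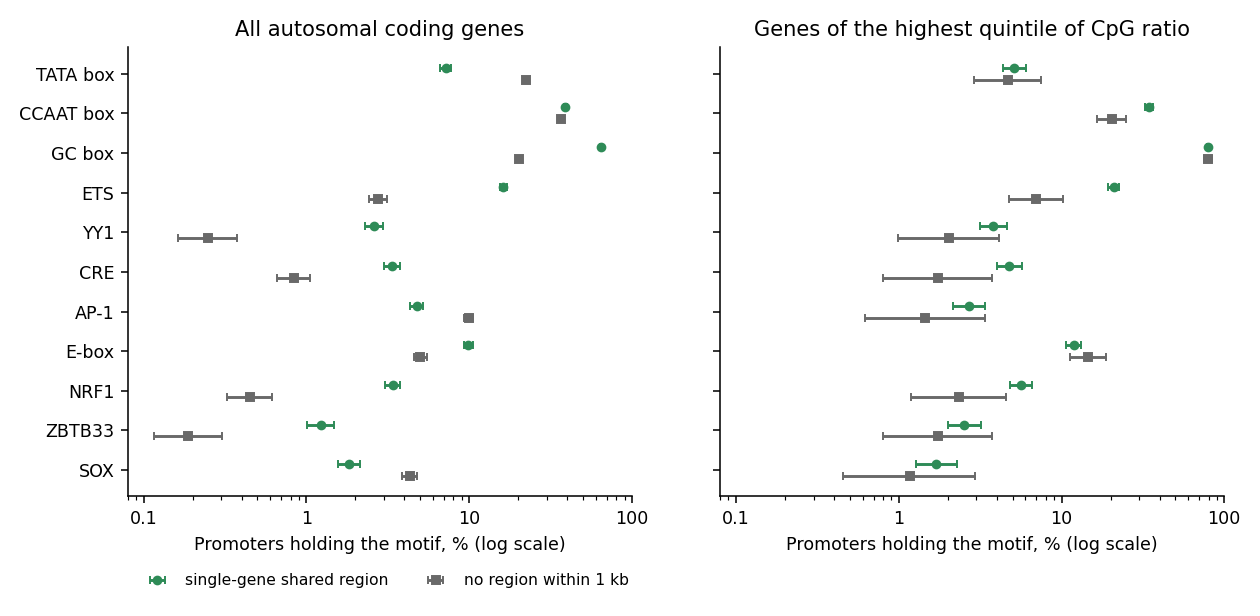
Share of 300-base promoters that hold each motif (horizontal axis, %, log scale) for genes with a shared single-gene region (circles) and genes with no region within 1 kb (squares), with 95% Wilson intervals, over all autosomal protein-coding genes (left) and within the highest quintile of CpG ratio (right). The GC box lies at 64.7% and 20.2% on the left and at 79.4% and 79.9% on the right, whereas the ETS motif stays apart, at 16.2% and 2.75% on the left and with intervals of 19.4 to 22.5% and 4.75 to 10.2% on the right.

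Several gene families of the basic machinery of the cell often had such promoters, read against the 43.3% of all genes. Cytosolic ribosomal protein genes had one in 60 of 82 cases (73.2%, 62.7 to 81.6%), among them Rps29 (1357 bp), and 15 more shared a region with a neighbouring gene. Proteasome subunit genes had one in 33 of 48, aminoacyl-tRNA synthetase genes in 25 of 36, translation initiation factor genes in 39 of 52, spliceosomal protein genes in 39 of 58, RNA polymerase II and Mediator subunit genes in 29 of 41, and DNA replication genes in 20 of 30. Ubiquitin-conjugating enzyme genes reached 30 of 34 (88.2%), led by Ube2ql1 (2373 bp) and Ube2d3 (1881 bp). Rab GTPase genes, which direct vesicle traffic, had one in 41 of 55. Of all genes with a ratio of at least 0.6 and at least 50% GC, 65.2% had one. Among such genes of these lists, the share ran from 63.6% (DNA replication) to 92.3% (ubiquitin-conjugating enzymes). It was 66.7% for synthetases, 66.7% for RNA polymerase II and Mediator, 69.4% for proteasome subunits, 70.0% for spliceosomal proteins and 78.9% for Rab genes. How much of the excess over 43.3% goes with CpG was not tested.

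In other families of this machinery the count was held down by shared starts. Mitochondrial ribosomal protein genes had a promoter of their own in 42 of 78 cases and a region shared with a neighbour in 31, respiratory complex I genes in 23 and 19 of 44, subunits of the anaphase-promoting complex in 7 and 7 of 15, and those of the cytosolic chaperonin in 3 and 5 of 8. Clustered histone genes had 22 and 40 of 67. Counted with any shared region, these lists stood between 92.5% and 100%. Their median promoter CpG ratios lay between 0.75 (histones) and 0.956 (anaphase-promoting complex).

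The exceptions in these lists could be named. Among ribosomal protein genes, Rpl38 had a region called at the proximal end only, Rpl12 and Rpl19 at the distal end only, and Rpl10l, Rpl39l, Rpl3l and Rpl4 none. Rpl10l, Rpl39l and Rpl3l are copies known for use in testis or muscle, whereas Rpl4 belongs to every ribosome, and the nearest region to a start of Rpl4, a distal one, was 1866 bp away. No region was found for the proteasome genes Psma8, Psmb11, Psmd9, Psme2b and Psmg3, of which Psma8 and Psmb11 encode testis and thymus subunits. The same was true of Ndufa4l2 and Ndufb10, of Sf3b5 and Srsf12, of Mrpl23, Mrpl55 and Mrps34, and of Ube2d2b, Ube2o and Ube2u. For Ndufb10 and Sf3b5, which encode subunits of complex I and of the SF3b splicing complex, the nearest region was a shared one 2186 and 2649 bp from a start.

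**Figure D5:**
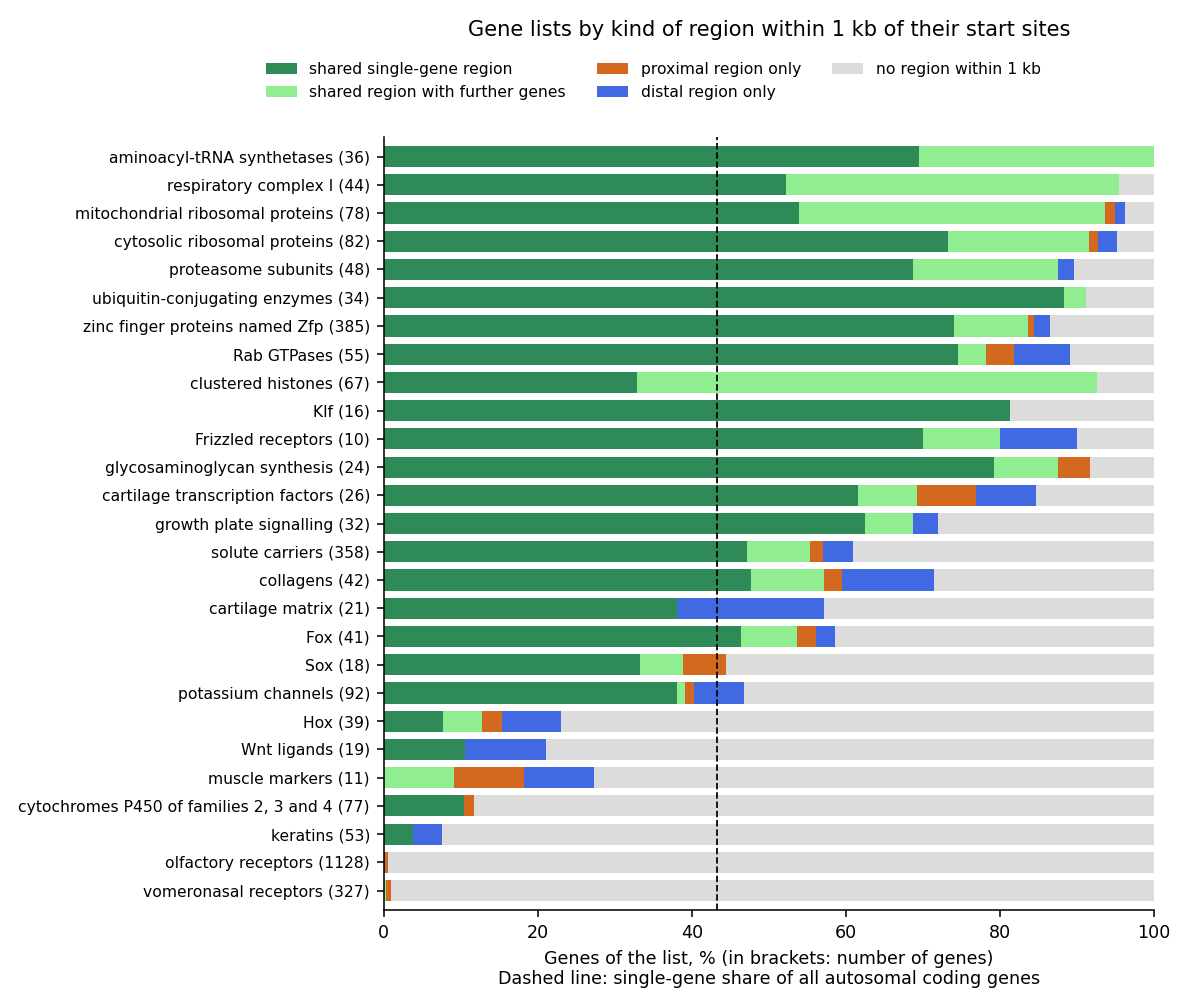
Genes of 27 lists (rows, number of autosomal genes in brackets) by the kind of region within 1 kb of their starts, as % of the list (horizontal axis), with a dashed line at the 43.3% of all autosomal protein-coding genes that had a shared single-gene region. Dark green bars reach from 88.2% for ubiquitin-conjugating enzymes to 0.177% for olfactory receptors and 0% for vomeronasal receptors.

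Families of transcription factors differed among themselves. Zinc finger genes named Zfp had a promoter of their own in 285 of 385 cases (74.0%, 69.4 to 78.2%), with a median promoter CpG ratio of 0.586. Klf genes had one in 13 of 16, led by Klf12 (2402 bp), Klf11 (1931 bp) and Klf3 (1585 bp), and Klf14, Klf15 and Klf17 had no region. By contrast, Hox genes, which set position along the body and limb, had one in 3 of 39 (7.69%, 2.65 to 20.3%). These included Hoxc6 (945 bp) and Hoxd10 (669 bp), and 30 Hox genes, Hoxa11 and Hoxa13 among them, had no region of either end. T-box genes had 5 of 16, Lhx and Nkx genes 8 of 22, Sox genes 6 of 18 and Fox genes 19 of 41. Sox11 (1712 bp), Sox8 (1150 bp), Sox4 (846 bp), Sox9 (800 bp), Sox2 (732 bp) and Sox12 (625 bp) were the covered Sox genes, while Sox6 shared its region with another gene and Sox5 had a proximal region only.

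A similar split was seen between Wnt ligands and their receptors. Of 19 Wnt genes, Wnt2 (813 bp) and Wnt6 (664 bp) had a member region, and neither region held a start, lying 932 and 994 bp from one. Wnt2b and Wnt16 had a distal region only and 15 had none, among them Wnt5a and Wnt5b. Of 10 Frizzled genes 7 had one, led by Fzd1 (1840 bp), Fzd7 (1312 bp) and Fzd2 (1095 bp), and Fzd10 was the gene with no region. FGF ligand genes had one in 11 of 20 and BMP and GDF genes in 8 of 21.

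The Hox and Wnt genes were not poor in CpG. Their median promoter CpG ratios, 0.745 and 0.744, were close to the 0.752 of all covered genes. Of the 23 Hox genes with a ratio of at least 0.6 and at least 50% GC, 3 had any shared region (13.0%, 4.54 to 32.1%), and of 11 such Wnt genes 1 had (9.09%, 1.62 to 37.7%), against 84.9% of the 9338 such genes overall. Potassium channel genes of this class were covered in 15 of 39 cases (38.5%) and Lhx and Nkx genes in 3 of 10.

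Many families used in other tissues had few such promoters, though not all of them. Of 1128 olfactory receptor genes, Olfr94 (962 bp) and Olfr769 (868 bp) had one (0.177%, 0.0486 to 0.644%), and the region of Olfr94 held no start of the gene. None of 327 vomeronasal receptor genes had one (upper Wilson bound 1.16%), and the same held for 57 keratin-associated protein, 64 defensin, 53 taste and trace amine receptor and 22 major urinary protein genes. Keratin genes had one in 2 of 53 cases, at Krt10 (974 bp) and Krt16 (785 bp), cornified envelope genes in 1 of 36 (Sprr1a, 678 bp), and kallikrein genes in 1 of 27 (Klk10, 1276 bp). Cytochrome P450 genes of families 2, 3 and 4, enzymes of liver metabolism, had one in 8 of 77, led by Cyp4v3 (1281 bp) and Cyp4f17 (1215 bp). Serpin genes had one in 7 of 60, Serpinh1, the collagen chaperone, among them. Chemokine genes had one in 5 of 37 cases, claudin genes in 5 of 22 and C-type lectin genes named Clec in 7 of 30. Closer to the 43.3% of all genes were potassium channel genes, with 35 of 92 (38.0%, 28.8 to 48.3%), and genes of GABA and glutamate ionotropic receptors, with 14 of 35 (25.6 to 56.4%). Peaks hold no read depth, and for families of near-identical copies reads that map to several places may have been lost, which was not tested.

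Genes of the growth plate itself were covered unevenly. Of 21 cartilage matrix genes on the autosomes, 8 had a shared promoter of their own (38.1%, 20.8 to 59.1%), 4 had a region at the distal end only and 9 had none. The region of Hapln1, the link protein that ties aggrecan to hyaluronan, held 2 peaks of each end, which together with the gap between them spanned 1803 bp at the proximal and 1843 bp at the distal end. The other regions had a single peak of each end. Matn3 (matrilin 3) had peaks of 918 and 1106 bp, Col2a1 (type II collagen) of 866 and 1036 bp, Acan of 919 and 978 bp, Col9a3 of 667 and 955 bp and Col11a1 of 894 and 946 bp. Cnmd (chondromodulin) had peaks of 347 and 500 bp, and its region lay 445 bp downstream of the nearest start and 531 bp from the 5′ end.

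Col9a1, a chain of type IX collagen, had 3 regions. The region at its 5′ end had peaks of 541 bp at the proximal and 753 bp at the distal end. The second, 17645 bp further in, had peaks of 1643 and 1324 bp, lay 68 bp beyond the start of a shorter transcript and covered 1412 bp of intron. The third, 52750 bp from the 5′ end, had peaks of 644 and 641 bp. The distal peak, or for Hapln1 the distal span, was the wider in 8 of these 10 matrix regions, against 45.3% of all members. This is a count over few regions from 1 list of each end.

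The matrix genes with a distal region only were Col11a2 (1165 bp), Col9a2 (907 bp), Comp (496 bp) and Snorc (1257 bp). Chad, Cilp, Col10a1, Dcn, Epyc, Fmod, Matn1, Prg4 and Ucma had no region. The nearest region was 5685 bp from a start of Epyc, 6207 bp from one of Prg4 (lubricin) and 28016 bp from one of Col10a1, the collagen of hypertrophic chondrocytes. The 10 matrix regions had a median CpG ratio of 0.506, and 3 of them, those of Col9a1, were under 0.4, which 9.21% of all members were. In the wider family of 42 collagen genes, 20 had a promoter of their own and 10 of their 24 regions were under 0.4. Col4a1 with Col4a2 and Col4a3 with Col4a4 are known head-to-head pairs and shared regions of 1259 and 939 bp.

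Of 26 cartilage transcription factor genes 16 had a shared promoter of their own (61.5%, 42.5 to 77.6%), an interval that overlapped that of the matrix genes and held the 43.3% of all genes. The widest were at Zbtb20 (1706 bp), Nkx3-2 (1593 bp), Mef2c (1448 bp) and Gli1 (1340 bp), and Gli2, Gli3, Hif1a, Hdac4, Pax1, Pax9 and Sox9 were also covered. At Nkx3-2 the proximal peak was 688 bp wide and the distal peak 1581 bp. Foxa2, Runx2, Runx3 and Shox2 had no region within 1 kb. For Runx2, the regulator of hypertrophy and bone formation, the nearest region was a shared one 1239 bp from a start, and for Foxa2 it was 1528 bp away, both just past the limit.

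Growth plate signalling genes had one in 20 of 32 cases (62.5%, 45.3 to 77.1%), with receptors and ligands among them. Of their 23 regions 18 held a start, and those of Igf1r and Fgf18 ended 353 and 251 bp upstream of one. The receptor genes Igf1r (1926 bp), Bmpr2 (1720 bp), Bmpr1a (1612 bp), Tgfbr1 (1393 bp), Smo (1292 bp), Tgfbr2 (1132 bp), Fgfr1 (1105 bp), Fgfr3 (748 bp) and Fgfr2 (606 bp) were covered. The Fgfr2 region of 606 bp held no start, and a further one of 604 bp held the principal start. Among ligands, Bmp2 (1205 bp), Pthlh (1192 bp), Fgf18 (1085 bp), Bmp6 (891 bp), Bmp7 (865 bp), Nppc (774 bp) and Bmp4 (586 bp) were covered, whereas Gdf5, Igf1, Igf2, Ihh, Wnt5a and Wnt5b had no region and Tgfb2 a distal one only. Nog, Npr2 and Pth1r, the last of these the receptor for the product of Pthlh, were also without a region. The nearest region was 9638 bp from a start of Pth1r and 12821 bp from one of Ihh, the hedgehog ligand of prehypertrophic chondrocytes. Absence from the lists says that no peak passed the threshold in the whole mixture of cells, so a promoter open in few of them could have been missed.

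Glycosaminoglycan synthesis genes, which build and sulfate the sugar chains of proteoglycans such as aggrecan, or, in the case of Has2, make hyaluronan, had a shared promoter of their own in 19 of 24 cases (79.2%, 59.5 to 90.8%). Slc35d1 (1955 bp), Xylt1 (1660 bp), Csgalnact1 (1482 bp) and Chsy3 (1462 bp) had the widest merged regions. At Slc35d1 the proximal peak was 1890 bp wide and the distal peak 574 bp, with 509 bp covered by both. All 20 regions of this list held a start and none had a CpG ratio under 0.4. B4galt7 and Chst13 had no region, and the nearest was 6384 bp from a start of B4galt7.

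Markers of other cell types were covered unevenly, read against the 43.3% of all genes. Of 11 muscle markers none had a shared promoter of its own (upper Wilson bound 25.9%), and Mylpf lay within 1 kb of a shared region that other genes also had. A further muscle marker had a proximal region only and 1 a distal region only. Immune (0 of 8, upper bound 32.4%) and osteoblast (0 of 7, upper bound 35.4%) markers had no shared promoter of their own either. A region called at the proximal end only was found for 1 immune and 1 osteoblast marker, while Col1a1, Sp7, Ibsp and Bglap were without any region. Endothelial markers had 2 of 8, Kdr with peaks of 815 bp proximal and 1347 bp distal and Flt1 with 1258 and 1265 bp. Erythroid markers with one included Klf1, while neuron markers had Syt1 and Snap25, epithelial markers Epcam and Esrp1, and tendon markers Col1a2. The regions of Klf1, Snap25 and Esrp1 held no start of the gene. An accessible promoter is not a measure of transcription, and the part of other cells in any of these regions was not tested.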

How the data were processed

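ATAC-seq was done by the study on cells of the proximal and distal femoral growth plates of E15.5 FVB embryos. Per the labels and the study's methods, reads were aligned to mm10 and the 2 biological replicates of each end were combined by irreproducible discovery rate (threshold 0.05). The submitters' processing notes name Bowtie2 2.2.8 and MACS2 2.1.1. The deposited lists hold chromosome, start and end alone (taken as BED positions counted from 0, printed from 1), with no counts, scores or replicate values. Depth is therefore unknown and no test was made. The 95% Wilson intervals cover counting error only.

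Overlapping peaks (at least 1 bp) were merged. Starts were those of all transcripts of protein-coding genes in GENCODE vM21, and position was measured from the start nearest to the centre. CpG ratio and 11 motifs were taken from GRCm38 sequence at -250 to +50 of the principal (APPRIS) start. The members and the 61 gene lists were chosen with earlier results of these data known. Named were all genes of the cartilage lists, the widest members, exceptions or first genes without a region of the other lists, and the 5 extremes of each measure. Some genes this rule takes are not reported here. Serpinh1 and the Col4 pairs were picked after their values were seen, and the CRE example, Epha2, is not printed because its principal start lay outside its region. Splits by gene name, chromosome and CpG class, motif shares by CpG quintile, nearest-region distances and the TATA position were added after seeing the data. The code (Python 3.11.15, NumPy 2.4.6, pysam 0.24.0, samtools 1.23.1, matplotlib 3.10.9) was tested on simulated regions with known answers.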

Additional observations from a re-analysis of the deposited data

How the results depend on the processing

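The share of genes with a shared promoter of their own was 43.3% and stayed between 33.4% and 49.7% under the alternatives that moved it past its interval. It was 42.3% where the region had to hold a start, 39.4% with the 5′ end of the gene as the only start, 33.4% with the narrower peaks of each list (under its median width) left out, 36.0% with no start of any other gene within 1 kb, 49.7% over genes with no other start within 2 kb, and 44.0% without readthrough genes (added after seeing the data). The median width was 984 bp for the merged region, 928 bp for the proximal peak, 913 bp for the distal peak and 855 bp for the part covered by both. Regions holding a start fell from 93.0% to 90.1% with protein-coding transcripts only and to 76.7% with the 5′ end only. Centres downstream rose from 54.5% to 59.0% and 75.7%. Fewer starts were then available, and the 5′ end is by definition the outermost, so other starts of the gene can only lie downstream of it. What these choices add to the rise was not tested. The median CpG ratio of covered genes was 0.73 with the window -500 to +500 and 0.73 at the 5′ end, and that of genes without a region 0.202 at the 5′ end. The CCAAT box, 2.42 percentage points more frequent in covered genes, turned to -3.02 with the window -500 to +100; the cause was not tested. No other motif difference changed sign with another window or at the 5′ end. Within the highest CpG quintile (added after seeing the data), the GC box (79.4% against 79.9%) and TATAAA (5.13% against 4.66%) lost their order, with overlapping intervals. In quintiles 2 and 3, counted from the lowest, both motifs kept their order, with intervals apart. Of the 61 gene lists, 26 moved past their interval without the narrower peaks, all downward, 14 with any shared region, all upward, and 1 with the start inside the region. No paired analysis was possible because each end has 1 list. The lists carry no depth, so a gene without a region may have had an accessible promoter below the threshold.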
